A study of Mus musculus with 2 samples.

Results

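The Zfp322a sites described here are those built mostly of reads that fit several places of the mouse genome equally well. There were 982 of them among 5059 Zfp322a sites in all. A site was a stretch where reads extended to 300 bp piled up to a Zfp322a height of at least 9, joined over gaps of at most 300 bp, with a Zfp322a height of at least 3 times the IgG height. An IgG height of 0 was taken as 1, which held for 102 of the 982 sites, so the folds of these are set by that choice. A site was kept when at least 50% of the Zfp322a reads overlapping it had a mapping quality of 0, the score given to a read with several equally good places. Height, fold and mapping quality of these same reads chose the sites, so their heights and folds are a description and carry no test.

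The reads came from E14 mouse ES cells, a line labelled with the background strain C57BL/6 and grown in serum with LIF, the cytokine that keeps mouse ES cells undifferentiated. Sonicated chromatin was precipitated with an antibody against ZNF322 (Zfp322a ChIP) or with rabbit IgG, and no other treatment distinguished the libraries. Each antibody had 1 library, so no value here has a replicate check, and every interval covers counting error only. Mapped reads numbered 5187475 for Zfp322a and 4843481 for IgG, and 15.8% and 15.7% of them had a mapping quality of 0. The Zfp322a reads came from 1 lane of the flow cell and the IgG reads from another, so antibody and lane cannot be told apart.

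Repeats fill a large part of mammalian genomes. LINE-1 elements are retrotransposons whose promoter in the mouse is built from tandem copies of a short unit, the monomer, placed before the coding part, which encodes a reverse transcriptase and ends in a tail of A. Many of them are active in ES cells, and zinc finger proteins, the class to which Zfp322a belongs, are known to bind retroelements. YY1, another zinc finger protein, binds a short core word that lies in many promoters.

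The 982 sites were grouped by the sequence of their reads and then by alignment of the sites with each other. Tandem units of 208 to 214 bp made up 3 of the groups. Unit 1 held 372 sites (37.9% of all, 95% interval 34.8 to 41.0), unit 2 held 100 and unit 3 held 78. A further 243 sites were made mostly of reads of A, and 14 of other simple repeats. A family of related copies on chromosome 4 held 6 sites. Of the remaining sites, 37 lay in groups of 2 to 4 and 132 shared no aligned sequence with another site. Of the 372 sites of unit 1, 301 consisted only of reads of quality 0, as did 546 of all 982.

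The units are shown here because most of what follows turns on them. Each is 1 copy of the repeat in mm9, printed from 5′ to 3′, with the YY1 core AANATGGCG in capitals. Unit 1 lies at chr13:4982780-4982991 on the minus strand, unit 2 at chr5:98418294-98418507 on the minus strand and unit 3 at chr3:90900234-90900441 on the plus strand.
unit 1: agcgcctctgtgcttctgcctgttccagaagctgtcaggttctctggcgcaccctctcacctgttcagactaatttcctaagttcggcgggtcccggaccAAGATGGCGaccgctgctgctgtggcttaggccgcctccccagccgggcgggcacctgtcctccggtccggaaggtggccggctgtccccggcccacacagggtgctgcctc
unit 2: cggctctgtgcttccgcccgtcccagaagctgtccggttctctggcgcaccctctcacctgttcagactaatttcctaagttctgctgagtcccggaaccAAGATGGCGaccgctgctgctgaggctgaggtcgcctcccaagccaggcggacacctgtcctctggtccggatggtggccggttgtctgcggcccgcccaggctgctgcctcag
unit 3: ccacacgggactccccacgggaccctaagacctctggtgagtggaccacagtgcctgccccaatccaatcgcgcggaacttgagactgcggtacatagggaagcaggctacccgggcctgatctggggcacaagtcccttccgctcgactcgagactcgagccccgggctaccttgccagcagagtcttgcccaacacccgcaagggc

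Units 1 and 2 were 87.5% identical over 216 aligned columns, and both carried the core. Each was printed on the strand with more core matches and cut so that a core starts at base 101, so that shared position is no finding. Unit 3 was 52.0% identical to unit 1 and held no YY1 core. Instead it held CCAAT, the word bound by NF-Y, on the printed strand at bases 60 and 65. The units were rich in G and C, with 66.0%, 64.5% and 63.9%, and held 14, 14 and 13 CpG. Unit 1 also held GGGCGG, the word of SP1, and CCGGAAG, the word of ETS factors, whereas unit 3 held neither.

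The genome held 7595 copies of unit 1, 5081 of unit 2 and 10782 of unit 3, counting alignments of at least 100 bp with at least 80% identity. Neighbouring copies of unit 1 were most often 212 bp apart, at 88.1% of neighbours, and those of unit 3 208 bp apart, at 70.7%. Arrays led by unit 1 numbered 1945, with up to 25 copies, and arrays led by unit 3 numbered 2511, with up to 49. On either side of each array 7000 bp were read, away from the array, for a frame of at least 1000 codons with FADD. FADD are residues of the reverse transcriptase of LINE-1. Before the printed 5′ end, on the opposite strand, a frame lay at 82.6% of unit 1 and 25.2% of unit 2 arrays. Beyond the 3′ end, on the printed strand, the shares were 0.463% and 0.114%. Unit 3 was the reverse, with 0.199% of arrays before the 5′ end and 46.6% beyond the 3′ end. Relative to the frame, unit 3 is thus printed the other way round from units 1 and 2. Of 1000 random places, 0.5% had such a frame. Most unit 1 arrays thus had such a frame nearby and most arrays of units 2 and 3 had none. Where there was a frame, it lay mainly on 1 side, which differed between unit 3 and the other units. No repeat annotation was used, so the units are not given family names here.

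**Figure D1:**
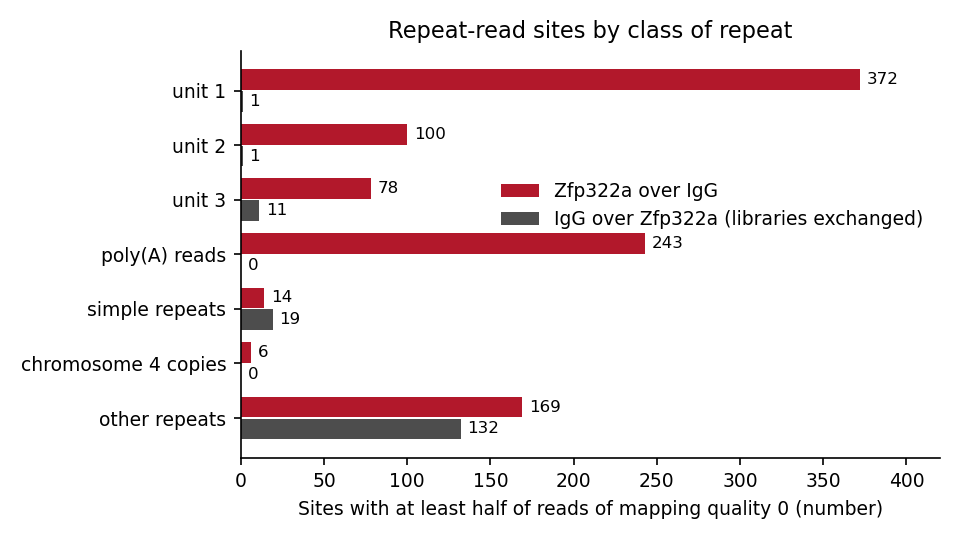
Number of sites with at least 50% of reads of mapping quality 0 in each class of repeat (horizontal bars), for Zfp322a over IgG and for the same rule with the libraries exchanged. Unit 1 gave 372 sites against 1 after the exchange and poly(A) reads 243 against 0, whereas simple repeats gave 14 against 19.

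The same rule with the libraries exchanged gives the background. Of 2145 stretches that reached 9 Zfp322a reads and had at least 50% reads of quality 0, 982 (45.8%) reached the fold, against 50.6% of all 9996 stretches. With IgG over Zfp322a, 164 of 1075 such stretches (15.3%) reached it, against 22.7% of all 2687 stretches. The exchanged stretches were spread differently over the classes. Unit 1 had 1 of them, unit 2 had 1, unit 3 had 11 and poly(A) reads had none, while simple repeats had 19 and other repeats had 132. Simple repeats were therefore as frequent in the IgG library, and for the other repeats outside the named groups 169 sites stood beside 132 exchanged stretches.

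The sites lay close to the limits of the rule. Their median height was 10 Zfp322a reads and 667 (67.9%) had a height of 9 or 10. At the height limit, 444 sites had exactly 9 reads, and 512 stretches that met the other criteria stopped at 8. At the fold limit, 156 sites had a fold of exactly 3. The nearest stretch outside, at chr8:19783908-19785446, had 138 Zfp322a against 47 IgG reads, a fold of 2.94. At the limit of mapping quality, 5 sites had exactly 50% reads of quality 0, among them 5 of 10 reads at chr10:21778559-21778580. The nearest site outside, at chr9:123760781-123761376, had 17 of 35 (48.6%).

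**Figure D2:**
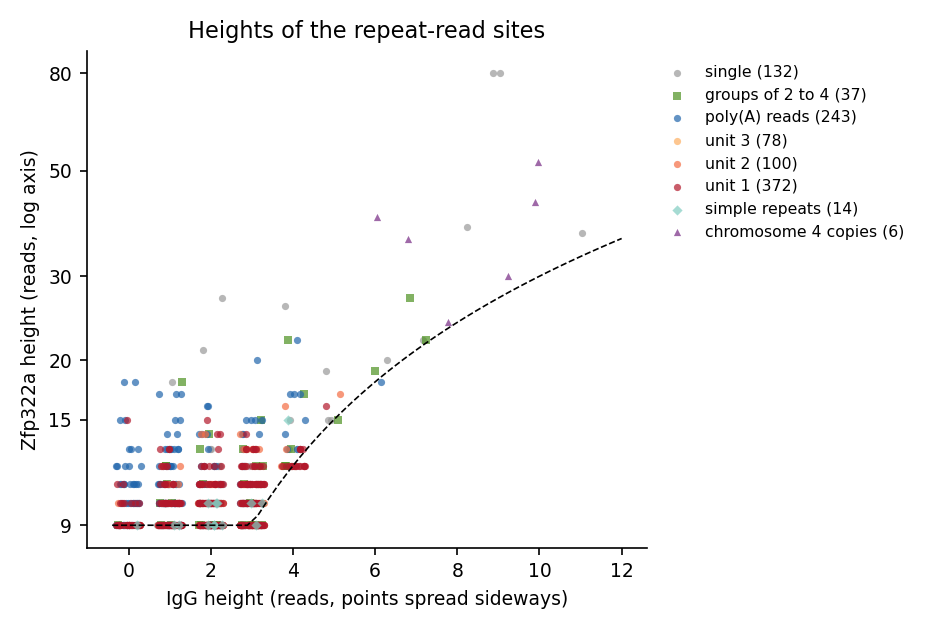
Zfp322a height (log axis) against IgG height of the 982 sites, in reads, coloured by class. The dashed line marks the rule, 9 reads or 3 times IgG, and points are spread sideways by up to 0.3 reads. Most sites sit at 9 or 10 reads, and the sites above 30 reads are copies on chromosome 4 or sites of no group.

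Sites of unit 1 were low and many. The lowest had 9 and the highest 16 Zfp322a reads, with 10 at the median, while IgG had 0 to 5 reads and 2 at the median. The highest, at chr1:140685643-140686107, lay between genes with 16 Zfp322a against 5 IgG reads, and 25 of its 26 Zfp322a reads were of quality 0. The highest site of unit 2, at chr3:66439301-66439813, had 17 against 5 reads and that of unit 3, at chr3:18455639-18455868, had 12 against 4. None of the 3 units had a site in an exon at its middle, and 259 of 372 sites of unit 1, 68 of 100 of unit 2 and 64 of 78 of unit 3 lay between genes. Copies in the genome were placed likewise: 26.0% of unit 1 copies overlapped a gene, where genes cover 39.8% of bases, and 0.0922% overlapped an exon. On chromosome X lay 10.5% of unit 1 sites (7.56 to 14.1) and 10.8% of unit 1 copies, against 1.79% of the other Zfp322a sites.

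Because a read of quality 0 can come from any copy, the place of a single site is uncertain, and the totals over all copies are the firmer measure. Over the 7595 copies of unit 1 lay 22518 Zfp322a and 10288 IgG reads. Per mapped read this was 2.04 times as many in the Zfp322a library (95% interval 1.996 to 2.09). Over unit 2 there were 10738 against 5789 reads, a ratio of 1.73 (1.68 to 1.79). Over unit 3 there were 19778 against 14805, a ratio of 1.25 (1.22 to 1.27). The intervals of the 3 units do not overlap, in the order unit 1, unit 2, unit 3.

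The excess was not limited to the sites. Outside all Zfp322a sites the ratio was 1.81 (1.77 to 1.86) for unit 1, 1.62 (1.56 to 1.67) for unit 2 and 1.21 (1.19 to 1.24) for unit 3. These reads overlapped no site, but reads of quality 0 can be placed away from the copy they came from. Only 8.10% of unit 1 copies touched a site, and 18401 of the 22518 Zfp322a reads lay outside. Reads with a mapping quality above 0, which the aligner could place, were few. For unit 1 they numbered 353 against 154, a ratio of 2.14 (1.77 to 2.60), for unit 2 the ratio was 1.43 (1.29 to 1.58) and for unit 3 it was 1.39 (1.28 to 1.504). Placed reads thus kept unit 1 above the others, while the intervals of units 2 and 3 overlapped.

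**Figure D3:**
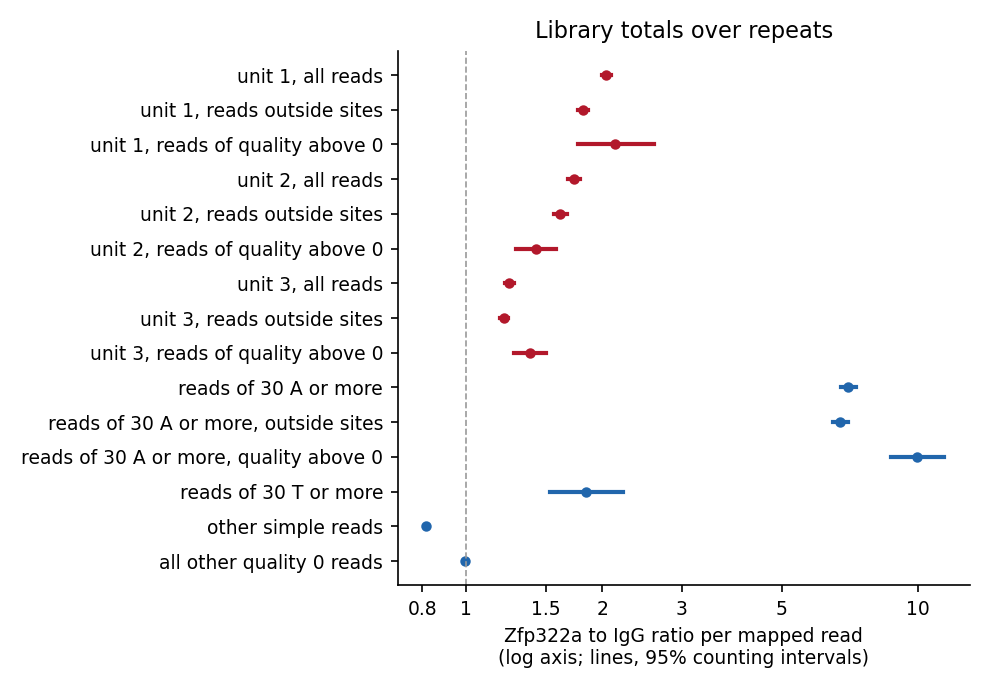
Zfp322a to IgG ratio per mapped read (log axis) over all copies of each unit and over reads classed by sequence, with 95% counting intervals as lines. Unit 1 lies at 2.04 and reads of at least 30 A at 7.02, while the reads of mapping quality 0 left after A, T and few-word reads, which include those of the units, lie at 0.996.

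Base composition moved with the ratio of all reads in these libraries, and differently with that of quality 0 reads. In windows of 200 bp away from the copies, the ratio of all reads was 1.35 at 66 to 68% G and C, 1.32 at 64 to 66%, 1.22 at 62 to 64% and 0.641 at 22 to 24%. For reads of quality 0 in these windows it was 1.02 (0.978 to 1.07), 1.08 (1.04 to 1.13), 1.001 (0.962 to 1.04) and 1.16 (1.07 to 1.27). The quality 0 reads over the units had ratios of 2.04 (1.99 to 2.09) for unit 1, at 66.0% G and C, 1.77 (1.71 to 1.83) for unit 2, at 64.5%, and 1.24 (1.21 to 1.27) for unit 3, at 63.9%. Each was above the quality 0 windows of its composition, while unit 3 was near the windows of all reads. The windows still held the Zfp322a sites outside the unit copies, so they are not a background free of sites. The part of base composition in the ratio of the units was not tested.

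For unit 1 the ratio was similar over most of the range of identity. Unit 1 copies of at least 98% identity had a ratio of 2.07 (2.003 to 2.14) and those of 90 to under 95% had 1.99 (1.89 to 2.09). The 39 copies of 85 to under 90% were lower, at 1.24 (0.853 to 1.83), with 68 against 51 reads. At 80 to under 85% unit 1 had 1.87 (0.926 to 3.96), with only 26 against 13 reads. Unit 2 had 1.08 (0.926 to 1.25) there, with 378 against 328 reads, and 1.83 (1.73 to 1.94) at 85 to under 90%. Unit 3 had 1.13 (1.04 to 1.22) at 80 to under 85% and 1.29 (1.25 to 1.33) at 98% or more. The exact YY1 core was present in 6728 of 7595 unit 1 copies (88.6%). Copies with it had a ratio of 2.05 (2.01 to 2.11) and copies without it 1.92 (1.77 to 2.08), so the intervals overlap. For unit 2, of whose copies 43.8% held the core, the ratios were 1.73 (1.65 to 1.82) with it and 1.73 (1.66 to 1.81) without. Placement limits these splits, since 22165 of the 22518 Zfp322a reads over unit 1 were of quality 0. Such a read stands at 1 of several equally good copies, so unlike copies can exchange reads and ratios between them are blurred. The part of the core was not tested.

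The reads were not spread evenly along unit 1. Over 4101 full copies, the ratio of 5′ ends on the unit strand was 2.42 (2.27 to 2.59) at bases 1 to 100, before the YY1 core, and 1.85 (1.75 to 1.94) from base 101 on. On the opposite strand the order was reversed, with 1.82 (1.72 to 1.93) before and 2.39 (2.25 to 2.54) from base 101 on. In bins of 10 bases the unit strand was highest at bases 71 to 80 (3.02) and the opposite strand at bases 101 to 110 (3.36), the bin that holds the core. The ratio was above 1 in every bin of either strand, and on the unit strand it was still 2.49 at bases 111 to 120.

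The same split stood in 3616 copies that touched no Zfp322a site, where the unit strand had 2.17 (2.02 to 2.33) before and 1.74 (1.64 to 1.84) after, and the opposite strand 1.70 (1.60 to 1.81) and 2.16 (2.02 to 2.30). In unit 2 copies that touched no site, the opposite strand differed in the same way, with 1.68 (1.52 to 1.87) and 2.01 (1.79 to 2.25), though the intervals overlap. The unit strand of unit 2 had 1.63 (1.44 to 1.85) and 1.57 (1.43 to 1.72). Most reads over units 1 and 2 fit several places equally well, so copies without a site can hold reads from copies with a site. The copies without a site are therefore no independent check of the split. Unit 3 has no core, so the start of a site set its first base and it was cut at the base used for unit 1. Its split is therefore arbitrary and no control for the core. It had 1.15 (1.10 to 1.21) and 1.35 (1.29 to 1.41) on the opposite strand and 1.27 and 1.198 on the unit strand.

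**Figure D4:**
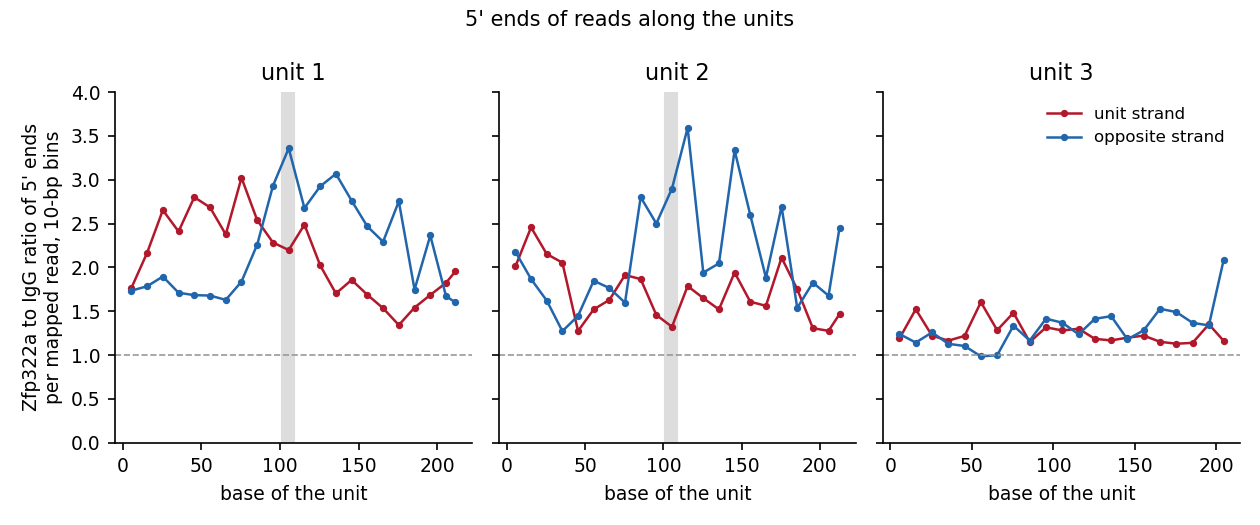
Zfp322a to IgG ratio of the 5′ ends of reads per mapped read in bins of 10 bases along units 1, 2 and 3, by strand. The grey band marks the YY1 core (bases 101 to 109). In unit 1 the unit strand is highest at 3.02 before the core and the opposite strand at 3.36 on it. The opposite strand of unit 2 reaches 3.59 at bases 111 to 120, past the core, and unit 3 reaches at most 2.08.

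Longer arrays held a site more often. Of unit 1 arrays of 2 copies 27 of 428 (6.31%) held a site of the unit, of those with 3 to 5 copies 221 of 1231 (17.95%) and of those with more than 10 copies 9 of 13 (69.2%, 38.6 to 90.9). The ratio over these arrays was 1.995 (1.85 to 2.15), 2.06 (1.996 to 2.12) and 2.09 (1.799 to 2.44), with overlapping intervals, and 1.76 (1.34 to 2.31) over single copies. In unit 2 the ratio was lower over single copies, at 1.43 (1.28 to 1.60), than over arrays of 3 to 5 copies, at 1.82 (1.74 to 1.91). Unit 3 arrays of more than 10 copies held a site in 9 of 26 cases at a ratio of 1.27, beside 1.18 over single copies. The share of arrays with a site rests on the rule and carries no test.

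The YY1 core lay within 199 of the 982 sites (20.3%, 17.8 to 22.9), against 143 of 4077 other Zfp322a sites (3.51%, 2.96 to 4.12). Of these 199, 178 were sites of unit 1, which had it in 47.8% of cases, and 17 were sites of unit 2. In windows of 144 bp, the median length of the sites, placed at the middle of each site, the shares were 25.4% for the repeat-read sites, 60.5% for unit 1, 1.72% for the other sites and 0.222% for all 17766812 such windows of the genome. A window of 144 bp can hold the 9 bases of the core at 136 of the 212 positions of unit 1 (64.2%), close to the 60.5% of unit 1. In the same windows NF-Y's CCAAT stood in 60 of 78 sites of unit 3 and in 22.2% of the genome's windows. Every word was searched on both strands. CACGTG (the E-box) and ATGCAAAT (the octamer) stood within none of the 372 sites of unit 1, whose printed copy holds neither word. They stood within 6.77% and 0.319% of the other Zfp322a sites, and in 1.395% and 1.236% of the genome's windows. The 372 sites are copies of the same unit, so they are not separate observations of a word.

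The second large class consisted of reads of A. Their excess in the Zfp322a library was larger than that of any unit, and it was larger for A than for T. Of reads of quality 0, 24262 Zfp322a and 3228 IgG reads held at least 30 A among their 36 bases, a ratio of 7.02 per mapped read (6.76 to 7.28). The bases counted are those of the genome at the mapped place, on the strand of the read. Reads with at least 30 T, the same tracts read from the other strand, numbered 342 and 173, a ratio of 1.85 (1.53 to 2.23). Reads of A alone had a ratio of 3.597 (3.398 to 3.81). Outside the Zfp322a sites the ratio of A reads was 6.74 (6.49 to 7.001), and among reads of mapping quality above 0 it was 9.94 (8.70 to 11.4), with 2523 against 237 reads.

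The highest site of this class shows the pattern. It lay between genes at chr10:71759730-71760043, with 22 Zfp322a against 4 IgG reads, and 22 of its 23 Zfp322a reads were A reads. The start of its tract, at chr10:71759997-71760132 on the minus strand, is shown with runs of at least 10 A in capitals.
poly(A) site: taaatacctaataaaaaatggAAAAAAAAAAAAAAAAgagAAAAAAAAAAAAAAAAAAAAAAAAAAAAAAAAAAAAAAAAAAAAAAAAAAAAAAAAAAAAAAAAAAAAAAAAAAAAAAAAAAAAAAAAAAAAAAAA

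All 243 sites of the class held more A than T reads, and 233 held no T read. Their reads of quality 0 were 2228 of A and 10 of T. In the IgG library too, A reads of quality 0 outnumbered T reads, with 3228 against 173, so this imbalance is not particular to the Zfp322a library. The sites were one-sided. In 128 of 243 (52.7%) every read lay on 1 strand, 59 times the plus and 69 times the minus strand, and 182 had at least 90% of reads on 1 strand. The share of sites with all reads on 1 strand was 0.806% in unit 1 (3 of 372) and 0.270% in the other Zfp322a sites (11 of 4077). The class was defined by reads of A or T, and the A reads of 1 tract share a strand, so the definition bears on these shares. The median fold of the poly(A) sites was 9, with an IgG height of 0, taken as 1, at 49 of them. They made up 169 of the 486 sites of fold 5 or more and 129 of the 333 sites of fold 9 or more.

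**Figure D5:**
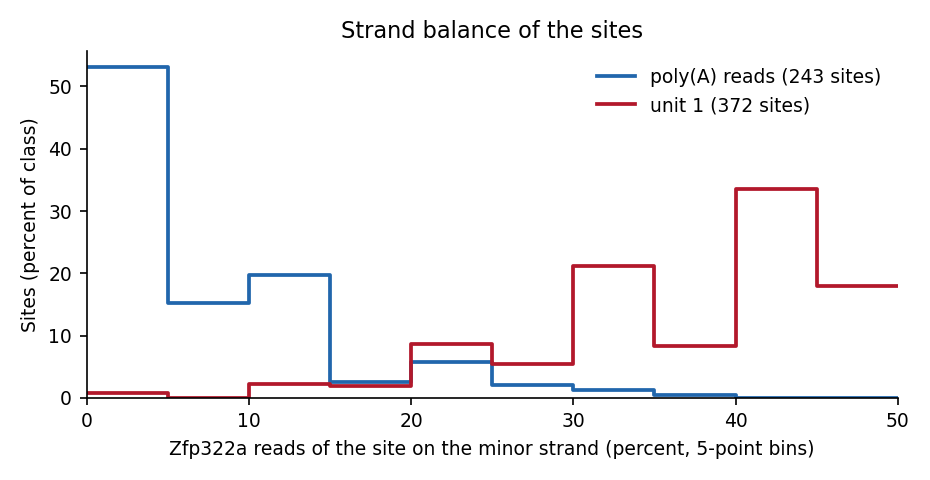
Share of the Zfp322a reads of a site that lie on its minor strand, in bins of 5 percentage points, as a percentage of the sites of the class. The median is 0 for poly(A) sites, of which 128 have every read on 1 strand, and 40% for sites of unit 1.

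Reads of other simple repeats had no excess in the Zfp322a library. Other reads of few different 3-base words numbered 65653 against 75279, a ratio of 0.814 (0.806 to 0.823). The reads of quality 0 that were neither of A, of T nor of few words numbered 729684 against 683809, a ratio of 0.996 (0.993 to 0.9996), and these still include the reads of units 1, 2 and 3. The 14 sites of simple repeats had a median height of 9, and the highest, in an intron of Alk at chr17:72814344-72814648, had 15 against 4 reads.

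The highest of the 982 sites belonged to neither units nor A reads. A family of related copies on chromosome 4 held 6 sites with heights of 24 to 52 and a median of 38. Each had 2 to 6 places of at least 95% identity and 1 or 2 of at least 99%, its own included. Of these, 5 lay at the start of an annotated pseudogene, within 1000 bp before to 100 bp after it, and all 6 held GGGCGG, with 62.02 to 74.6% G and C. The highest, at chr4:145593464-145594233, had its middle 22 bp from the start of Gm13240 and had 52 Zfp322a against 10 IgG reads. The next, at the start of Vmn2r-ps19 (chr4:146817173-146818006), had 43 against 10, the site at Gm13243 had 40 against 6, that at Gm13168 had 36 against 7 and that at Gm13162 had 24 against 8. The site at chr4:145953622-145954031 was the exception, with 30 against 9 reads and no gene start in that range. A part of the highest copy, at chr4:145593850-145593995 on the plus strand, is shown with GGGCGG on either strand in capitals.
chromosome 4 copy: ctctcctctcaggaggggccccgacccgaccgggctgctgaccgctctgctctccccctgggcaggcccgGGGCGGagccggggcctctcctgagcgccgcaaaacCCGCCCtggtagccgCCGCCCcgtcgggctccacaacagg

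Over the 8 copies of this sequence in the genome, at 90% identity or more, there were 413 Zfp322a against 119 IgG reads, a ratio of 3.24 (2.64 to 4.01). In the 2 copies without a repeat-read site the counts were 82 and 12, though these copies can hold other Zfp322a sites. Some reads could be placed. At Vmn2r-ps19, 29 of 66 Zfp322a reads had a quality above 0 against 5 of 18 IgG reads, and at Gm13168 13 of 50 against 5 of 12. The sites at chr4:145953622-145954031 and at Gm13162 had none.

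Local tandem repeats held the highest of the 982 sites. In 40 of the 169 sites outside the large groups (23.7%), a stretch of 120 bases matched itself 10 to 100 bases on at 80% identity or more, against 36 of 4077 other Zfp322a sites (0.883%). A tandem repeat can itself give reads with several equal places, and mapping quality chose the sites, so the rule bears on this contrast. Periods ran from 17 to 96 bases with a median of 36.5, and 33 of the 40 lay in introns. A pair of them, both on chromosome 2, stood far above the rest with 80 Zfp322a against 9 IgG reads each. At chr2:4930548-4931606, in an intron of Mcm10, which encodes a replication protein, 145 of 157 Zfp322a reads were of quality 0. At chr2:6265516-6267016, in an intron of Usp6nl, 80 of 267 Zfp322a reads could be placed, against 8 of 20 IgG reads. A site between genes at chr10:11037831-11038396 had 27 against 2 reads. Their repeats are shown on the plus strand with the first period in capitals, at chr2:4930754-4930906, chr2:6266531-6266688 and chr10:11038080-11038236.
Mcm10 intron: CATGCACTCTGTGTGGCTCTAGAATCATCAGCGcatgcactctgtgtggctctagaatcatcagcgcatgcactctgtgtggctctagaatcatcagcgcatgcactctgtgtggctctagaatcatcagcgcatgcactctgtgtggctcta
Usp6nl intron: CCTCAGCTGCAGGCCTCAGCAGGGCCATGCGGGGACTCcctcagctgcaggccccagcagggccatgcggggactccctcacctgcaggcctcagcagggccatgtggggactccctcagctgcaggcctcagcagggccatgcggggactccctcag
chromosome 10: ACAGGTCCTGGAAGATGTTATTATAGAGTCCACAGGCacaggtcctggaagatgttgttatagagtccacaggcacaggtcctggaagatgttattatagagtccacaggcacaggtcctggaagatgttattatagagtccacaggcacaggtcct

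The periods were 33, 38 and 37 bases, and the sequences were unlike each other by the alignment used for grouping. The median height of the 40 sites was 9.5 and 26 of them had 9 or 10 reads, so the high ones were few. IgG reached 9 reads at both of the sites with 80 Zfp322a reads, against a median of 2 over all 982.

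Few of the repeat-read sites lay at gene starts, though 315 of the 982 had their middle in an intron and 35 in an exon. At a TSS, from 1000 bp before to 100 bp after the start of an annotated transcript, were 46 of 982 (4.68%, 3.45 to 6.199), against 2296 of 4077 other Zfp322a sites (56.3%). Of these 46, 41 belonged to copies on chromosome 4, groups of 2 to 4 or ungrouped sites, 4 to poly(A) and 1 to unit 1. At a coding TSS with a height of at least 15 were sites of Hspa1a and Hspa1l, Lipo1 and Lipo2, Hist1h3i, Hist2h2ac and Hist2h2be, and Gm7292. The heat shock genes Hspa1a and Hspa1l, at chr17:35108685-35109547, had 22 against 7 reads, and 17 of 46 Zfp322a reads could be placed. Of the lipase family, the site at Lipo1 alone had 15 against 5 reads and the site at Lipo1 and Lipo2 had 22 against 7.

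Replication-dependent histone genes, whose near-identical copies encode the core histones and which were singled out after their values were seen, held 9 sites, 7 of them on chromosome 13, with heights of 9 to 19. Hist1h3i (chr13:21874857-21875229) had 19 against 6 reads, Hist2h3c2 19 against 5 and Hist2h2ac (chr3:96024428-96024825) 18 against 1. Over the 16 intervals that hold the H2A and H2B copies aligned to a linked group of 3 sites the ratio was 2.10 (1.63 to 2.73), and over 12 intervals of H3 copies it was 2.48 (1.84 to 3.36). In the intervals without a repeat-read site the ratios were 1.87 (1.42 to 2.48) and 2.25 (1.60 to 3.21). These intervals can still hold other Zfp322a sites, which passed the same height and fold, so they are no independent check. The start of Pgk1-rs7, a copy of the gene of a glycolytic enzyme, had 38 against 8 reads at chr12:10906810-10907375, where 37 of 38 reads were of quality 0 and the sequence had 4 copies of at least 99% identity. A site 29135 bp from the start of Zfp868, at chr8:72108500-72109154, had 37 against 11 reads, of which 20 of 56 Zfp322a and 5 of 23 IgG reads could be placed.

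The sites without a group were mostly of low copy number. Of 132, 99 had 2 to 9 places of at least 95% identity, 21 had 10 or more and 12 had only their own. The regions that the authors deposited formed 754 distinct intervals. These are fewer than the sites here and than the binding sites the paper reports, which limits the share of sites they can cover. The deposited regions held few repeat reads. Of 20231 Zfp322a reads in them 4.47% were of quality 0, against 15.8% in the library, and they covered 36 of the 982 repeat-read sites (3.67%) and 719 of 4077 other sites (17.6%).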

How the data were processed

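ChIP-seq reads of 36 bp were mapped to mm9 by the authors; the labels' processing notes name CASAVA 1.4, BWA and Partek 6.6 without their roles. The deposited files list each mapped read with a score, its mapping quality, and the reads inside regions of the authors' peak detection. Read counts were not normalized. In each library 0 reads shared a 5′ position and strand with another, so heights count a position at most once per strand. The Mann-Whitney test of strand separation used in the study was not applied. Members and lists were chosen with earlier results of these data known.

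Reads were extended to 300 bp, and the share of reads of quality 0 was taken over extended reads that overlapped a site. Sites mostly of reads with at least 30 A or 30 T, or of at most 14 different 3-base words, were set aside first. The sequence of a read was taken from the genome at its mapped place. The other sites, padded by 150 bp, were aligned to each other with BLAST+ 2.17.0 and linked by alignments of at least 80% identity over at least 100 bp that covered the site or 50 bp of it. The largest group joined units 1 and 2 and was divided at 94% identity. Genes and sequence came from the NCBIM37 (mm9) annotation and genome. Ratios were divided by library totals, with exact conditional binomial intervals; shares carry Clopper-Pearson intervals (95%). Scripts were tested on simulated data.

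Sites named singly were the 10 highest, the highest of each group of at least 5, those at a coding TSS with a height of at least 15, and those next to each limit. The tandem repeats, the histone genes, Pgk1-rs7's copy number and the other copies on chromosome 4 were examined after values were seen. The alternatives tried were other heights, folds, fragment lengths, scaling, joining, quality limits, identities, TSS definitions and motif mismatches.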

Additional observations from a re-analysis of the deposited data

How the results depend on the processing

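Of 57 alternatives, 24 stayed within 1.5 times a main count or within the counting interval of a share or ratio, and 33 did not. The cause of these differences was not tested. No paired analysis was possible because each antibody has 1 library. The number of sites, 982, became 358 at a height of at least 11, 486 at fold 5, 333 at fold 9, 539 with reads extended to 200 bp and 1685 without joining. The stretches with the libraries exchanged, 164, became 54, 63, 35, 102 and 327 under these settings. The share of unit 1, 37.9%, became 33.8%, 33.74%, 33.03%, 26.16% and 44.09%, and 45.19% with at least 80% of reads of quality 0. Chosen after seeing the data, it was 48.07% for the undivided group and 59.47% with no site set aside. The share at a TSS, 4.68%, became 9.218% at a height of at least 11, 3.086% at fold 5, 2.102% at fold 9, 8.534% with 200 bp, 2.996% with at least 80% of quality 0, 2.444% for coding transcripts and 12.53% in a wider window around the start. The share with the YY1 core, 20.3%, became 16.76% at a height of at least 11, 12.31% at fold 9, 9.091% with 200 bp, 11.34% without joining, 24.34% with at least 80% of quality 0 and 27.39% with 1 mismatch allowed. For reads of quality above 0 the ratio over unit 1 was 2.14 in place of 2.04, and 1.893 in place of 1.81 outside the sites. Heights near 9 reads limit every count of sites.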
